A study of Mus musculus with 4 samples.

Results

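Cultured mouse palatal mesenchymal cells that received 5Z-7-oxozeaenol, an inhibitor of the Tak1 kinase, and then TGF-beta2 were compared with cells that received neither. The comparison uses 2 of the 4 arrays of the series, 1 on each side. It covers 11744 genes, called measured below, of 18193 with a probe set of their own. These passed a filter: their mean signal over the 4 arrays reached that of the median probe set. The filter is not a detection call. All groups were cultures from outbred wild-type embryos at embryonic day 14, and none is labelled with an altered gene. The first array holds untreated cells and the second cells given TGF-beta2 for 120 minutes. On the remaining arrays the same stimulation followed 60 minutes with SB431542, an inhibitor of the TGF-beta type I receptor kinase, or with 5Z-7-oxozeaenol. Below, "with SB431542" and "with oxozeaenol" always mean the inhibitor followed by TGF-beta2. No source used here gives a dose or a vehicle. The series as given here has no array of oxozeaenol alone, so what the inhibitor and the ligand each contributed to a difference from the untreated array cannot be told apart. It also has 1 array per group, so no spread between cultures is known, no test could be run and every difference below is one between single arrays.

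As background, Tak1 (gene Map3k7) is a kinase that receptors for TGF-beta, interleukin-1 and tumour necrosis factor activate through adaptor proteins. It passes the signal to the JNK and p38 MAP kinases and, through the IkappaB kinases, to NF-kappaB, whose targets include chemokines, cytokines and its own inhibitors. The ERK branch of the MAP kinases switches on immediate early genes within minutes and then the phosphatases and Sprouty-related proteins that turn the kinase off again. Resorcylic acid lactones such as 5Z-7-oxozeaenol bind a cysteine in the ATP pocket that Tak1 shares with several other kinases, the ERK-activating MAP kinase kinases among them. Which kinases were inhibited in these cultures was not measured.

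The 4 arrays had medians between 66.4 and 72.8 and a common trimmed mean of 500.0. The palatal mesenchyme list was well represented, with 30 of 37 genes measured, and Map3k7 read 479.7 untreated, 551 with TGF-beta2, 539 with SB431542 and 575 with oxozeaenol. All 10 measured housekeeping genes lay within 2-fold between the oxozeaenol and untreated arrays, with a median log2 difference of 0.05. Macrophage transcripts were abundant on every array. Of 12 endothelial markers 3 passed the filter, with summed signals between 460 and 799 over the arrays, and of 12 muscle markers 4, with sums between 1392 and 1731. The defining genes Pecam1, Cdh5 and Myog were under the filter signal of 66.1 on every array, whereas Kdr, a receptor of endothelial cells, read 195 and Des, a muscle filament gene, 273 untreated.

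With oxozeaenol, 177 of 11744 genes (1.51%) were at least 2-fold lower than on the untreated array and 175 (1.49%) at least 2-fold higher. Differences are on the scale log2(signal + 21.7), where the added constant keeps dim signals from giving very large folds, so a fold from a dim signal is understated. The median over all genes was 0.03, and 95% of genes lay between -0.82 and 0.82. The lower genes started from a median signal of 648 on the untreated array and stood at 201 with oxozeaenol, and 145 of the 177 exceeded the filter signal on all 4 arrays. The higher genes went from a median of 119 to 457, and 58 of the 175 were under the filter signal when untreated. At 4-fold, 40 genes were lower and 39 higher, and at 8-fold 8 were lower and 14 higher.

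**Figure D1:**
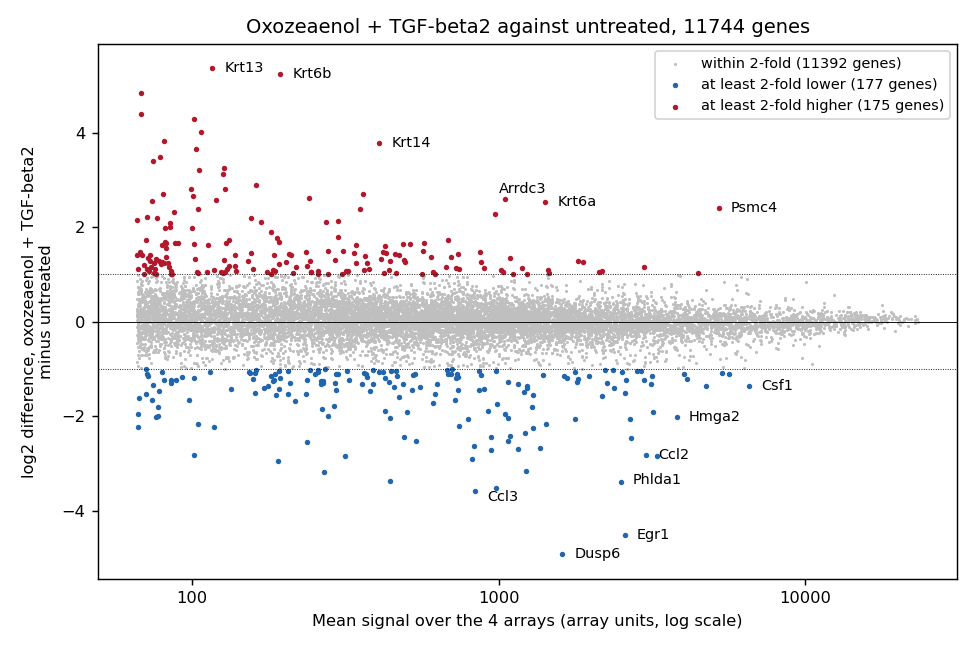
Each point is 1 of 11744 genes, placed by its mean signal over the 4 arrays (x axis, log scale, array units) and its log2 difference between the oxozeaenol and untreated arrays (y axis), with 177 lower genes in blue and 175 higher genes in red. The farthest lower genes, Dusp6 at -4.93 and Egr1 at -4.51, were bright, whereas the farthest higher genes, Krt13 at 5.36 and Krt6b at 5.24, were dim on the other arrays.

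The same genes were read on the other arrays, which share the untreated array as their reference. The 177 lower genes had a median log2 difference from untreated of 0.02 with TGF-beta2 and -0.19 with SB431542, beside -1.33 with oxozeaenol. The 175 higher genes had medians of 0.26 with TGF-beta2, 0.29 with SB431542 and 1.34 with oxozeaenol. Of all genes, 98 (0.834%) were at least 2-fold below each of the other 3 arrays with oxozeaenol, and 74 (0.63%) at least 2-fold above each. The corresponding counts were 17 below and 29 above for the TGF-beta2 array, 18 below and 1 above for the SB431542 array and 15 below and 2 above for the untreated array. The oxozeaenol array was thus the one with the most genes outside the range of the others. Against untreated, the other arrays held fewer genes past 2-fold, with 79 higher (0.673%) and 43 lower (0.366%) with TGF-beta2, and 55 higher (0.468%) and 45 lower (0.383%) with SB431542.

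**Figure D2:**
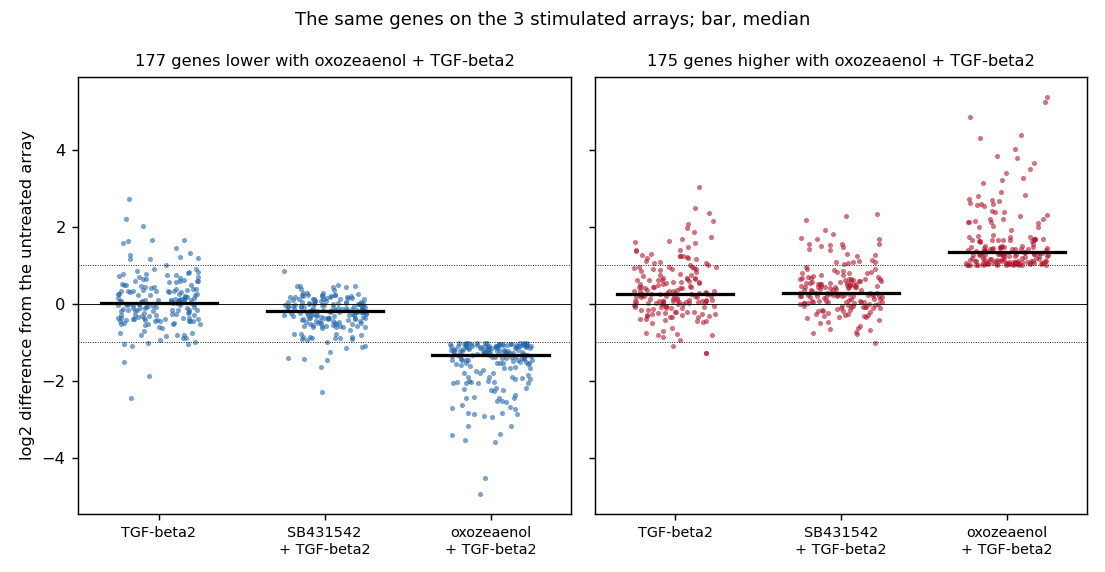
Log2 difference from the untreated array (y axis) of the 177 lower genes (left) and 175 higher genes (right) on each of the 3 stimulated arrays (x axis), 1 point per gene, with a bar at the median and dotted lines at 2-fold. The genes were chosen on the oxozeaenol column, which sets that column, and the medians on the other arrays lie between -0.19 and 0.29.

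Several genes carry more than 1 probe set, which reads another stretch of the transcript on the same array. Among the lower genes, 60 had at least 2 kept probe sets, and of the 81 probe sets not used for the count 79 were below 0 and 35 (43.2%) at least 2-fold lower, against 1.27% of all kept probe sets. Their median was -0.94. Among the higher genes, 58 of 68 further probe sets were above 0 and 24 (35.3%) at least 2-fold higher, against 1.45% of all kept probe sets, with a median of 0.78. Rgs16, which speeds up the switching off of G proteins, was lower on both of its probe sets, at -4.06 and -3.52. Krt14, a keratin, was higher by 2.44 and 3.78. Rspo2, a Wnt agonist, shows the opposite case: it was 2.13 on its brighter probe set and -0.31 on the other.

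Feedback inhibitors of the MAP kinases included the farthest decrease of all genes. Of 22 listed genes 21 were measured, 10 were at least 2-fold lower and none higher. Of all measured genes 1.51% were lower and 1.49% higher. The list median was -0.87, beside 0.03 over all genes. That median was -2.10 over the 10 members left by a stricter filter. Dusp6, the phosphatase that removes the activating phosphates from ERK, read 3658 untreated, 4547 with TGF-beta2, 3451 with SB431542 and 99.3 with oxozeaenol, a 30.4-fold difference between the first and last values once 21.7 is added to each. Phlda1, a cytoplasmic protein induced by growth factors, read 4207 untreated, 6534 with TGF-beta2, 3616 with SB431542 and 379 with oxozeaenol. Dusp4, a nuclear phosphatase of ERK, read 470.3 untreated, 964 with TGF-beta2, 250.0 with SB431542 and 32.9 with oxozeaenol. In these 3 genes the oxozeaenol array was the lowest of the 4, far below the untreated level.

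The Spred proteins hold back Ras-to-Raf signalling. Spred2 read 2206 untreated, 2373 with TGF-beta2, 1988 with SB431542 and 327 with oxozeaenol, a log2 difference of -2.68, and Spred1 stood at -2.17. Errfi1, a cytoplasmic inhibitor of the EGF receptor, read 3830.4 untreated, 6764 with TGF-beta2, 3002 with SB431542 and 683 with oxozeaenol. Dusp1, which acts mainly on p38 and JNK, read 1649.9 untreated, 1063 with TGF-beta2, 1914 with SB431542 and 387 with oxozeaenol. Its oxozeaenol value was the lowest, below that of TGF-beta2 alone, which itself lay -0.62 from untreated. The remaining lower members were Dusp2 at -1.80, Dusp5 at -1.23 and Spry2, which barely passed 2-fold. At the other end Dusp14 stood at 0.72 and Dusp8 at 0.24, so not every phosphatase of the family was lower. The difference of Dusp2 depends on a signal of 12.5 with oxozeaenol, under the filter.

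Immediate early transcription factors formed the second such group. Of 29 measured genes (31 listed) 12 were at least 2-fold lower and none higher, 26 were below 0 and the median was -0.80. Without the filter 12 of 31 were lower and 1 higher, with a median of -0.70, beside 1.97% of all genes lower and 3.11% higher. Egr4, a dim relative of Egr1 named after its value was seen, read 25.3 untreated, 87.6 with TGF-beta2, 14.6 with SB431542 and 74.7 with oxozeaenol. Egr1, a zinc finger factor that ERK induces through serum response elements, read 4389 untreated, 10257 with TGF-beta2, 5195 with SB431542 and 171 with oxozeaenol, a 22.9-fold difference from untreated on that same scale. Fosl1, the Fra-1 subunit of AP-1, read 1519 untreated, 1722 with TGF-beta2, 1372 with SB431542 and 212 with oxozeaenol. Fos itself, the first AP-1 subunit to appear after a stimulus, read 1644 untreated, 2089 with TGF-beta2, 1392 with SB431542 and 269 with oxozeaenol. TGF-beta2 alone was the highest of the arrays for all 3 of these genes and oxozeaenol the lowest.

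Egr2 and Egr3, relatives of Egr1, stood at -2.05 and -2.55. Egr2 read 461 untreated, 3154 with TGF-beta2, 236 with SB431542 and 95.2 with oxozeaenol, highest with the ligand alone. Myc, a regulator of growth and ribosome production, read 1676 untreated, 2376 with TGF-beta2, 1736 with SB431542 and 309 with oxozeaenol. Klf2 and Klf4, Krüppel-like factors, differed by -1.91 and -1.21, and Maff, Nr4a1, Ier3 and Zfp36l2 by -2.06, -1.89, -1.10 and -1.11. Jun (-0.96), Ier2 (-0.86) and Klf6 (-0.80) came short of 2-fold. Srf, the factor that binds serum response elements, was itself at 0.14, and Ier5l at 0.24 was the highest member. Among 24 measured genes of ribosome biogenesis, many of them Myc targets, Ppan was at -1.10 and 20 were below 0, with a median of -0.36.

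**Figure D3:**
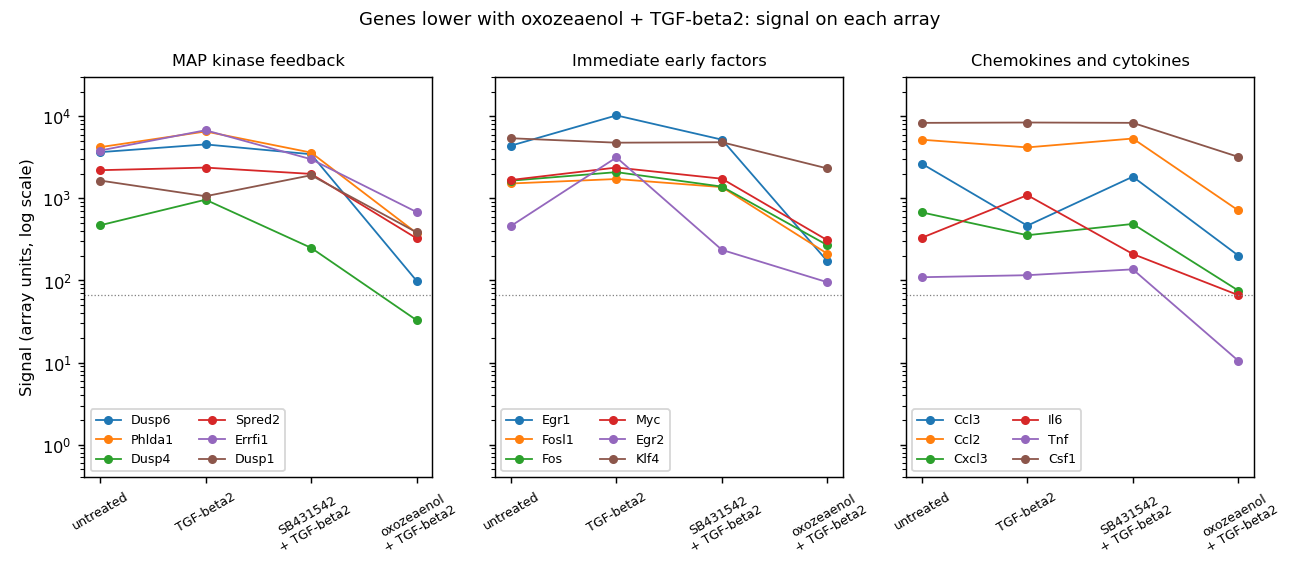
Signal (y axis, log scale, array units) of 18 genes on the 4 arrays (x axis), in 3 panels for MAP kinase feedback genes, immediate early factors and chemokines with cytokines. Lines only join the values of a gene, and the dotted line is the filter signal of 66.1. Every gene shown has its lowest value with oxozeaenol, and Egr2, Ccl3 and Il6 also differ widely between the other arrays.

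Ligands and other targets of growth factor signalling were lower beside them. Of 9 measured genes of the EGF family (14 listed), the ligand genes Ereg, Hbegf and Nrg2 were lower, beside 1.51% of all measured genes. Ereg, epiregulin, read 2042 untreated, 2676 with TGF-beta2, 1867 with SB431542 and 210.1 with oxozeaenol. Hbegf, heparin-binding EGF-like growth factor, read 4733 untreated, 10779 with TGF-beta2, 3488 with SB431542 and 639.5 with oxozeaenol. The receptor Egfr was at -0.20, Tgfa at -0.02 and Nrg1 at 0.70, and the list median was -0.20, or -0.02 over all 13 members with a probe set. Of 13 measured genes for plasminogen activation and invasion, Plaur, the urokinase receptor, was at -1.41, Plau, urokinase, at -1.03, and the inhibitor gene Serpinb2 at -1.32, while Timp1, Timp2 and Mmp3 each stood at 0.02. The dimmer probe set of Plau was at -0.11. Of 13 ETS factors, Fli1 was at -1.09 and Etv4 just short of 2-fold.

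Genes outside these lists were also among the 15 farthest lower. Rgs16 read 2038 untreated, 1693 with TGF-beta2, 1584 with SB431542 and 157 with oxozeaenol, and Rgs1, of the same family, read 800.2 untreated, 1293 with TGF-beta2, 518 with SB431542 and 57.9 with oxozeaenol. Meox1, a homeobox gene of somites and sclerotome, read 358 untreated, 467 with TGF-beta2, 199.7 with SB431542 and 27.6 with oxozeaenol. Trib1, a pseudokinase that directs proteins to degradation, read 189 untreated, 242 with TGF-beta2, 118 with SB431542 and 8.01 with oxozeaenol. All 4 genes had their lowest signal with oxozeaenol, and that signal was under the filter for Rgs1, Meox1 and Trib1. Ch25h, which makes 25-hydroxycholesterol, was higher than untreated on the other stimulated arrays and lowest here, reading 1309 untreated, 2939 with TGF-beta2, 2379 with SB431542 and 184 with oxozeaenol. The 15 other measured genes of the cholesterol list lay within 2-fold.

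Chemokines and cytokines made up the third group. Of 18 measured CC and CXC chemokines (23 listed) 7 were at least 2-fold lower and none higher (median -0.77), and of 13 measured cytokines and colony-stimulating factors (19 listed) 8 were lower and none higher (median -1.31). Both medians depend on the filter. Over all members with a probe set, dim ones included, 7 of 23 chemokines were lower with a median of -0.40, and 8 of 19 cytokines with a median of -0.02, beside 1.97% of all genes lower without the filter. Il33, an alarmin under the filter and named after its value was seen, was then the 1 higher cytokine and read 6.40 untreated and 109 with oxozeaenol. Ccl3, an attractant for macrophages, read 2646 untreated, 466 with TGF-beta2, 1838 with SB431542 and 201 with oxozeaenol. It was also low with TGF-beta2 alone, and lowest with oxozeaenol. Ccl2, the main attractant for monocytes, read 5185 untreated, 4179.7 with TGF-beta2, 5362 with SB431542 and 714 with oxozeaenol. Its neighbours in function Ccl7, Ccl12 and Ccl4 differed from untreated by -2.45, -2.06 and -2.91. The neutrophil attractants Cxcl3 and Cxcl2 differed by -2.84 and -1.40, whereas Cxcl1 at 0.23, Cxcl12 at 0.26 and Ccl8 at 0.04 did not share the decrease. Ccr1, a receptor for Ccl3 chosen after its value was seen, read 1823 untreated, 1639 with TGF-beta2, 1407 with SB431542 and 324 with oxozeaenol.

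Among cytokines of the interleukin-6 family, Il6 read 331 untreated, 1095 with TGF-beta2, 210.3 with SB431542 and 66.3 with oxozeaenol and Il11 read 663 untreated, 2736 with TGF-beta2, 265 with SB431542 and 105 with oxozeaenol. Lif read 404 untreated, 1931 with TGF-beta2, 179 with SB431542 and 150.2 with oxozeaenol. Each of these 3 genes was highest with TGF-beta2 alone, lower with SB431542 than untreated, and lowest with oxozeaenol. Clcf1 was at -2.21 on its brightest probe set and at -1.07 and -0.27 on the others, and the family's receptor Osmr, which binds oncostatin M, was at -1.24. Socs3, the feedback inhibitor that this family induces, was at -1.48 and Socs5 at -1.57, among 16 measured Socs and Jak-Stat genes of which none was 2-fold higher. Tnf, tumour necrosis factor, read 109.6 untreated, 116 with TGF-beta2, 137 with SB431542 and 10.5 with oxozeaenol. Tnfsf11, RANK ligand, and Tnfsf9 differed by -1.52 and -1.02. Il1b at 0.73, Il18 at -0.02 and Il1rn at 0.04 were within 2-fold.

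Of 19 measured NF-kappaB subunits and feedback genes 4 were lower, beside 1.51% of all measured genes, and none higher, with a median of -0.36. The 4 lower genes were Tnfaip3, the deubiquitinase A20 that ends NF-kappaB signalling, the inhibitor gene Nfkbie, the gene Nfkbiz, and Bcl3, a coactivator. Tnfaip3 read 611 untreated, 726 with TGF-beta2, 592 with SB431542 and 188 with oxozeaenol, and Nfkbie read 289 untreated, 343 with TGF-beta2, 341 with SB431542 and 86.4 with oxozeaenol. Nfkbiz and Bcl3 differed by -1.10 and -1.06. Rela, the main subunit, was at -0.14, and Cyld, another deubiquitinase, at 0.78 was the highest member. None of the 15 measured genes of the Tak1 complex and its adaptors was past 2-fold (median 0.09), with Traf6 at 0.56 and Map2k3 at -0.52 at the ends. Ptgs2, the inducible prostaglandin synthase and a known NF-kappaB and AP-1 target, was at -0.50.

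Markers of macrophages and blood cells were slightly lower beside this group. Of 15 measured markers 14 were below 0, with a median of -0.32, and 1 of them, Cd14, a receptor for bacterial lipopolysaccharide, was past 2-fold at -1.02. Their summed signal was 99690 untreated, 94395 with TGF-beta2, 95303 with SB431542 and 81662 with oxozeaenol. The defining markers Lyz2 and Csf1r stood at 0.03 and -0.24 and Ptprc at -0.59. In bulk RNA fewer cells of a type and less RNA per cell cannot be told apart, and the part of these cells in the chemokine values was not tested. Csf1, the growth factor for macrophages, was at -1.37 on its brightest probe set and at -1.14, -0.34 and -0.15 on the others.

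The upstream stretches of some of these genes are shown because some genes of a group shared a short motif there. RefSeq promoters (GRCm38.p6, 250 bases before to 50 after the start site) were found for 128 of the 177 lower and 131 of the 175 higher genes and searched on both strands. A CArG box, the element bound by serum response factor, occurred in 1.63% of all 32851 promoters. The share was 1.28% for promoters of all measured genes, 3.59% for those of lower genes and 2.25% for those of higher genes. Among 15 lower immediate early and feedback genes with a promoter, Dusp5 and Egr2 had a CArG box. Counted by gene, that is 13.3%, beside 1.56% of all measured genes and 1.81% of all genes with a promoter. A kappaB site, bound by NF-kappaB, occurred in 8.46% of all promoters and 10.5% of those of all measured genes, in 19.2% of those of lower genes and in 11.8% of those of higher genes. It was found for 8 of the 13 lower chemokine, cytokine and NF-kappaB genes with a promoter, namely Bcl3, Csf1, Cxcl2, Cxcl3, Il6, Lif, Nfkbie and Tnfaip3. Counted by gene, that is 61.5%, beside 12.5% of all measured genes and 9.55% of all genes with a promoter. Such genes are known NF-kappaB targets, as given above, and members of these lists that were not lower were not counted. An AP-1 site, TGACTCA or TGAGTCA, occurred in 5.20% of all promoters, or 5.95% of all genes with one, and in 5 of the same 13 lower genes. The other motifs searched are given as shares of the promoters of lower, higher and all measured genes, in that order, and then of all promoters. The cAMP response element TGACGTCA occurred in 6.59%, 1.12%, 2.95% and 1.79%, with Dusp1, Errfi1 and Maff among the lower genes. An Egr site, GCGGGGGCG or GCGTGGGCG, occurred in 8.38%, 6.74%, 6.53% and 3.47%. An ETS site, CCGGAAG, occurred in 6.59%, 6.74%, 16.9% and 8.86%, so that both sets of genes were below the measured genes in its share. A TATA box, TATAAA, occurred in 13.8%, 12.9%, 7.67% and 13.6%, above the measured genes for both sets. A Smad box, GTCTAGAC, occurred in 1.20%, 0.562%, 0.262% and 0.213%, which for the lower and higher genes is 2 promoters and 1. Matching letters are a description and do not show that a factor was bound. Each stretch is printed 5′ to 3′ on the strand of its gene, ends at the base before the start site, and has the CArG boxes (Dusp5) or kappaB sites (the others) in capitals. In Cxcl2 and Cxcl3 the capitals are 2 overlapping matches, 1 on each strand, and in Dusp5 they are 2 adjoining ones. None of the capitals overlaps a match to another motif searched.
Dusp5, chr19:53529025-53529144, + strand: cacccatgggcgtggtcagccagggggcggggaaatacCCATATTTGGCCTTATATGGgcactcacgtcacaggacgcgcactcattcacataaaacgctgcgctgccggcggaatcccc
Cxcl2, chr5:90903779-90903898, + strand: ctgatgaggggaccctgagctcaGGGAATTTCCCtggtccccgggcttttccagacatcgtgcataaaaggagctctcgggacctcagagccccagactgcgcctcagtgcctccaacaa
Cxcl3, chr5:90785981-90786100, + strand: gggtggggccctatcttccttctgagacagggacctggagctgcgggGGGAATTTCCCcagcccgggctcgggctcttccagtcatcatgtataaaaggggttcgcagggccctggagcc
Il6, chr5:30012994-30013113, + strand: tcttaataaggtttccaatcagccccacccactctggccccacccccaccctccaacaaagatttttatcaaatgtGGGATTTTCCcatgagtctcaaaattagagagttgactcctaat
Tnfaip3, chr10:19015411-19015550, - strand: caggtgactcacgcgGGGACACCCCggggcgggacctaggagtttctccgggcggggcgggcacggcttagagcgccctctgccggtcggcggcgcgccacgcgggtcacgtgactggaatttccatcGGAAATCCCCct

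Interferon-stimulated genes were lower than untreated as well, but with a different profile over the arrays. Of 17 measured genes 5 were at least 2-fold lower, beside 1.51% of all measured genes, and none higher. The list median was -0.61. The medians on the other arrays were -0.52 with TGF-beta2 and -0.56 with SB431542, and no gene of the list was 2-fold below all 3 other arrays with oxozeaenol. Rsad2, the antiviral protein viperin, read 2729.8 untreated, 1268 with TGF-beta2, 1016 with SB431542 and 769.8 with oxozeaenol. Ifit1 read 927 untreated, 489 with TGF-beta2, 502 with SB431542 and 326 with oxozeaenol, and Ifit3 read 965 untreated, 460.2 with TGF-beta2, 335 with SB431542 and 376 with oxozeaenol. For these genes the untreated array was the high one and the 3 stimulated arrays lay together. Irf1 and Gbp3, also interferon-induced, were at 0.36 and 0.41.

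Targets of TGF-beta and its Smad factors lay on both sides of the untreated level. Of 39 measured genes 8 were at least 2-fold lower and 4 higher, beside 1.51% and 1.49% of all measured genes. The list medians were -0.25 with oxozeaenol, 0.50 with TGF-beta2 and -0.31 with SB431542. This list contains genes picked for their response on these arrays, so its direction is no independent evidence. On the lower side stood Hbegf, Il11, Egr2 and Lif, given above, with Sphk1, sphingosine kinase, at -2.52, Hmga2, a chromatin protein of the embryo, at -2.02, Has2, hyaluronan synthase, at -1.95 and Snai2, a repressor of epithelial genes, at -1.36. Has2 read 1606 untreated, 3631 with TGF-beta2, 503 with SB431542 and 400.1 with oxozeaenol. Snai2 was also low with TGF-beta2 alone, reading 6599 untreated, 3238 with TGF-beta2, 9145 with SB431542 and 2553 with oxozeaenol, and its probe sets ranged from -1.36 to -0.40. Sphk1 read 789.9 untreated, 1928 with TGF-beta2, 414 with SB431542 and 119.6 with oxozeaenol, on both sides of the untreated level.

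Among the 4 higher members of the Smad list, the signals of Rasl11b and Wnt9a lay near those of TGF-beta2 alone. Rasl11b, a small Ras-like GTPase, read 454 untreated, 2424 with TGF-beta2, 345 with SB431542 and 2302 with oxozeaenol. Wnt9a, a Wnt ligand of developing joints, read 173 untreated, 687 with TGF-beta2, 91.3 with SB431542 and 654 with oxozeaenol. For these 2 genes the TGF-beta2 and oxozeaenol arrays were high and the untreated and SB431542 arrays low. Fgf21, a metabolic hormone, was in between, reading 111 untreated, 1055 with TGF-beta2, 57.2 with SB431542 and 251 with oxozeaenol. Gadd45b, a stress protein that activates p38, read 3470.2 untreated, 6186 with TGF-beta2, 2585 with SB431542 and 7132 with oxozeaenol. The feedback inhibitors Smad7 and Skil stood at -0.68 and 0.05, with Smad7 at -1.07 on its other probe set. None of 20 measured pathway components was past 2-fold, with Tgfb3, the ligand of the palatal shelf edge, the highest at 0.66, and Tgfbr1, the type I receptor, read 3561 untreated, 4881 with TGF-beta2, 3147 with SB431542 and 2893 with oxozeaenol.

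Id1, an inhibitor of differentiation that BMP and Smad signalling induce, was the 1 lower gene of 17 measured BMP and Id targets and read 4944 untreated, 2905 with TGF-beta2, 5542 with SB431542 and 1295 with oxozeaenol. Id3 was at -0.41, while Smad6 and Bmp4 were at 0.79 and 0.92. Of 30 measured palatal mesenchyme regulators, Fgf7, a growth factor that mesenchyme makes for the overlying epithelium, was lower at -1.29. Gli2, a transcription factor of hedgehog signalling, was higher at 1.50, reading 190.3 untreated, 229.8 with TGF-beta2, 228 with SB431542 and 578 with oxozeaenol, and Ptch1, the hedgehog receptor and a target of the pathway, stood at 0.77. The list median was 0.11. Fgfr2, the receptor that answers Fgf7 and Fgf10 in its epithelial form, read 506 untreated, 412 with TGF-beta2, 593 with SB431542 and 1721 with oxozeaenol and was higher on both of its probe sets (1.28 and 1.72). Fgf18, a growth factor of bone and cartilage, was higher at 1.22 but near its level with TGF-beta2 alone. It read 42.2 untreated, 122 with TGF-beta2, 54.0 with SB431542 and 128 with oxozeaenol. Ibsp, a bone matrix protein, and Adamts5, an aggrecan-cutting protease, were higher by 1.66 and 1.50.

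The farthest increases were mostly in genes of stratified epithelium. Cyp2f2, outside the lists and also among the 15 farthest higher, read 39.0 untreated, 44.1 with TGF-beta2, 95.2 with SB431542 and 541 with oxozeaenol. Of 43 suprabasal and cornified genes with a probe set (45 listed), taken here without the filter, 30 were at least 2-fold higher with oxozeaenol and none 2-fold lower, with a median of 1.76, and 23 were 2-fold above all 3 other arrays. Of all 18193 genes, 3.11% were 2-fold higher on that basis, 0.857% were above all 3 other arrays and the median was 0.04. The filter was not applied to this count because it uses the mean of all 4 arrays. Of the 26 members that passed it, 11 would not have passed on the mean of the other 3 arrays. The summed signal of the 26 was 3469 untreated, 4036 with TGF-beta2, 3938 with SB431542 and 22741 with oxozeaenol, and that of the 17 under the filter was 308, 362, 409 and 1709. Krt13, a keratin of the oral mucosa, read 28.0 untreated, 24.3 with TGF-beta2, 55.8 with SB431542 and 2023 with oxozeaenol. Krt6b, a keratin of stressed and wounded epithelium, read 59.7 untreated, 56.0 with TGF-beta2, 88.9 with SB431542 and 3060.4 with oxozeaenol. Krt6a, which has a nearly identical sequence and so may share signal with Krt6b, read 821 untreated, 953 with TGF-beta2, 1049 with SB431542 and 4877 with oxozeaenol. The first 3 arrays lay close together for these genes and the oxozeaenol array stood alone.

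Components of the cornified envelope followed. Sprr1a, a small proline-rich envelope protein, read 71.4 with TGF-beta2, 87.1 with SB431542 and 888 with oxozeaenol, which lay 2.90 above untreated on the log2 scale. Its relatives Sprr3 and Sprr2d differed by 4.01 and 3.40, and the late envelope proteins Lce3c, Lce3a and Lce3f by 3.83, 3.50 and 3.26. Sprr and Lce genes lie in clusters of close paralogs, and their probe sets may read more than 1 of them. Dsp, desmoplakin of the desmosome, read 147 untreated, 148 with TGF-beta2, 139 with SB431542 and 1012 with oxozeaenol. Asprv1, the epidermal protease that processes filaggrin, Krtdap and Dmkn, secreted proteins of differentiating keratinocytes, and Ly6d were higher by 4.39, 4.85, 4.30 and 3.66, each from a signal under the filter when untreated. The keratin Krt16 was higher by 3.13. Not all of the list was higher: S100a8 was at -0.13, Tgm3, an envelope transglutaminase, at 0.11 and Krt10, the main suprabasal keratin of skin, at 0.76. Of the 17 members under the filter 11 were at least 2-fold higher. Ivl, involucrin, and Flg, filaggrin itself, were not, reading 7.27 and 11.3 untreated and 4.62 and 17.8 with oxozeaenol.

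Basal and general epithelial genes were higher in part. Of 21 genes with a probe set (23 listed) 11 were higher by 2-fold or more without the filter, beside 3.11% of all genes. None was 2-fold lower, and the list median was 1.17. Over the 14 that passed the filter 5 were higher and the median was 0.43. Krt14 and Krt5, the keratin pair of basal cells, read 141 untreated, 295 with TGF-beta2, 275 with SB431542 and 2218 with oxozeaenol, and 195 untreated, 233 with TGF-beta2, 258 with SB431542 and 1383 with oxozeaenol. Krt17, Krt19 and Perp, a desmosomal p53 target, differed by 1.48, 1.17 and 1.44. The defining adhesion genes differed less. Cdh1, E-cadherin, read 257 untreated, 229.8 with TGF-beta2, 191 with SB431542 and 463 with oxozeaenol, and Epcam read 369 untreated, 232 with TGF-beta2, 331 with SB431542 and 366 with oxozeaenol. Krt18, the keratin of simple epithelium, was at 0.37. Among the genes under the filter, Krt15 read 2.27 untreated, 2.48 with TGF-beta2, 14.7 with SB431542 and 524 with oxozeaenol and Trp63, the master factor of stratified epithelium, read 26.1 untreated, 37.2 with TGF-beta2, 52.0 with SB431542 and 128 with oxozeaenol. Of the 7 list members under the filter 6 were at least 2-fold higher than untreated. Itgb4 was not set apart with oxozeaenol, reading 7.44 untreated, 43.7 with TGF-beta2, 34.6 with SB431542 and 46.1 with oxozeaenol. How many epithelial cells each culture held was not measured, and their part in these values was not tested. Without the 56 measured genes that are in these lists or are other keratin, Sprr, Lce or Klk genes, 145 genes remained at least 2-fold higher and 50 were above all 3 other arrays.

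**Figure D4:**
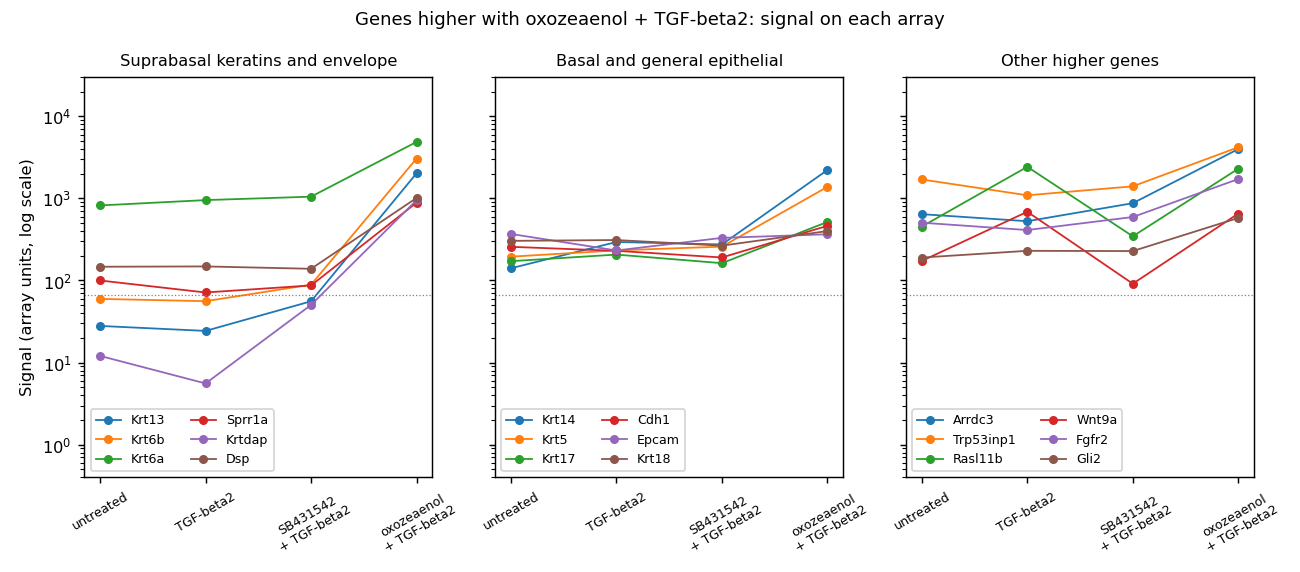
Signal (y axis, log scale, array units) of 18 genes on the 4 arrays (x axis), in 3 panels for suprabasal, basal or general epithelial and other genes. Lines only join the values of a gene, and the dotted line is the filter signal of 66.1. The suprabasal genes, Krt14 and Krt5 are high with oxozeaenol alone among the 4 arrays, Epcam and Krt18 are nearly level, and Rasl11b and Wnt9a are high with TGF-beta2 too.

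Upstream stretches of 3 of the higher envelope genes are shown for their AP-1 sites. An AP-1 site occurred for 6 of the 13 higher suprabasal and cornified genes with a promoter, namely Dmkn, Krt13, Krtdap, Lor, Sprr1a and Sprr2d, a share of 46.2%. Counted by gene in the same way it occurred for 8.40% of all higher genes, 7.81% of all lower genes, 4.78% of all measured genes and 5.95% of all genes with a promoter. Members of the list that were not higher, or were under the filter, were not counted, so the share is not set against the rest of the list. Dmkn, Krt13, Krtdap and Sprr2d were under the filter signal on the other 3 arrays and passed the filter only with the oxozeaenol array counted in. The genes Lor and Krtdap encode loricrin and a keratinocyte differentiation protein and were higher by 1.76 and 4.85. Capitals mark the AP-1 site. The Krtdap and Lor stretches end at the base before the start site, and the Sprr1a stretch, with 2 sites, ends 42 bases before it.
Sprr1a, chr3:92485923-92486042, - strand: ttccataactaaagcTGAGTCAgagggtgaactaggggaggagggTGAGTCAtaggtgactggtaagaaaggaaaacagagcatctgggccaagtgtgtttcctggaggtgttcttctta
Krtdap, chr7:30787785-30787904, + strand: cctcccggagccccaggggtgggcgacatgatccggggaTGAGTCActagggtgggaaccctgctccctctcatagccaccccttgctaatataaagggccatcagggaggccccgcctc
Lor, chr3:92083143-92083262, - strand: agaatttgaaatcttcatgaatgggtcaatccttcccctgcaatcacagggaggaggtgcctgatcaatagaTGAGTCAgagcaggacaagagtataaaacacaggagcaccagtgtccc

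Genes of growth arrest and cell death that FoxO factors control were higher in part. Of 26 measured genes 4 were past 2-fold, all of them higher, beside 1.49% of all measured genes. Of the 26, 20 were above 0 and the median was 0.48. Arrdc3, an arrestin-domain protein that removes receptors from the surface, read 643 untreated, 527 with TGF-beta2, 874 with SB431542 and 3993 with oxozeaenol, a 6.04-fold difference from untreated after the same addition. Trp53inp1, a p53-induced protein of autophagy and arrest, read 1700.1 untreated, 1091 with TGF-beta2, 1403 with SB431542 and 4196 with oxozeaenol. Fbxo32, the ubiquitin ligase atrogin-1, read 385 untreated, 631 with TGF-beta2, 235 with SB431542 and 984 with oxozeaenol. Bcl2l11, the death protein Bim, was at 1.36, with its probe sets between -0.15 and 1.71. Bmf, a related death protein chosen after its value was seen, read 199.8 untreated, 229 with TGF-beta2, 121 with SB431542 and 939 with oxozeaenol. Of 17 measured p53 targets Perp and Trp53inp1 were higher and Plk3, a stress kinase, lower at -1.43, with a median of 0.24. Pmaip1, the death protein Noxa, stood at 0.94.

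For a few higher genes it was the untreated array that stood apart. Psmc4, a proteasome subunit, read 1477 untreated, 8353 with TGF-beta2, 7567 with SB431542 and 7909 with oxozeaenol on its brightest probe set and stood at 0.09 on the other. Luc7l3, a splicing factor chosen after its values were seen, read 1655 untreated, 4109.5 with TGF-beta2, 3128 with SB431542 and 3727 with oxozeaenol, with its second probe set at -0.24. Klk7, a protease of the cornified layer, read 8.0 untreated, 109 with TGF-beta2, 122 with SB431542 and 172 with oxozeaenol. In these genes the untreated array was the lowest. Over all genes it was at least 2-fold below each of the others for 15 (0.128%).

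Other lists stood near the level of all genes. Of 33 measured collagens and matrix genes Has2 alone was past 2-fold, and the median was 0.03. Among 20 actin and contractile genes Lmod1, an actin-nucleating leiomodin, was higher at 1.24. The YAP and TEAD list of 19 genes had Ankrd1 lower at -1.03 and Lats2, the kinase that restrains YAP, higher at 1.06 on its brightest probe set, where TGF-beta2 and SB431542 were high too. The other 3 probe sets of Lats2 lay between 0.00 and 0.17. In the Notch list of 12 Rbpj, the DNA-binding factor of the pathway, was lower at -1.02. Hk2, the first enzyme of glycolysis, was lower at -1.16 among 20 hypoxia and glycolysis genes. Gsta4, a glutathione transferase, was higher at 1.65 among 12 Nrf2 targets, Dbp, an output gene of the clock, at 1.31 among 15 clock genes, and Hpgd, which inactivates prostaglandins, at 1.04 among 8 prostaglandin genes. No gene was past 2-fold among 14 heat shock chaperones, 20 genes of endoplasmic reticulum stress, 19 genes of the G1 to S transition, 19 of G2 and mitosis and 12 Sox and Runx factors, with medians between -0.08 and 0.17. Des, the muscle filament desmin, was lower at -1.53 among 4 measured muscle markers. Neither the 3 endothelial nor the 3 neural genes measured were past 2-fold.

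**Figure D5:**
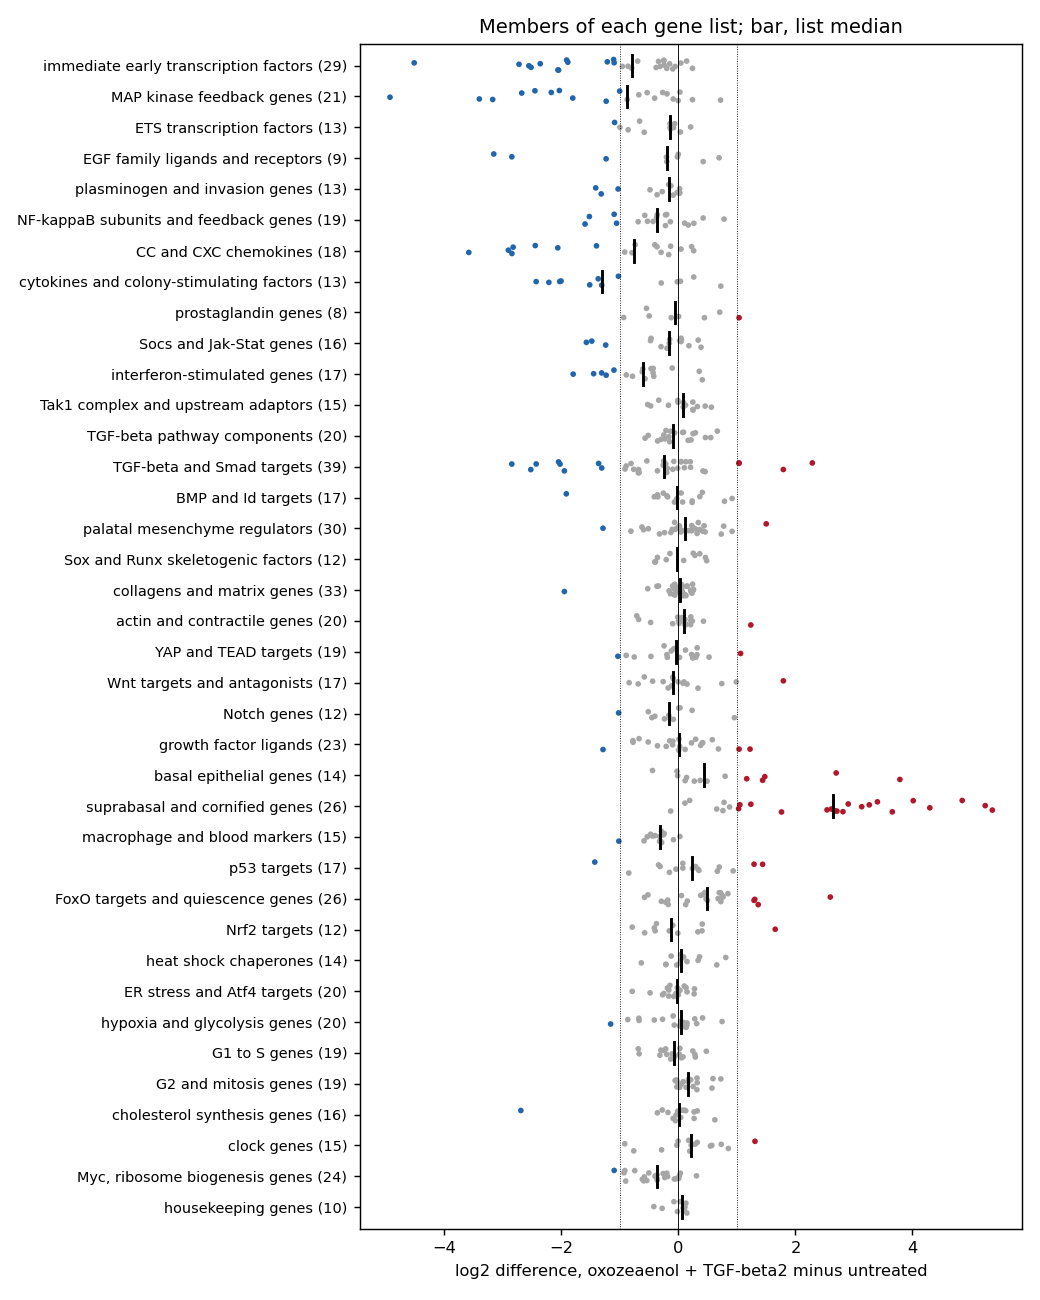
Log2 difference between the oxozeaenol and untreated arrays (x axis) of each measured member of the lists with at least 8 measured genes (y axis, number of genes in brackets), with a bar at the list median and dotted lines at 2-fold. Blue points are at least 2-fold lower and red points at least 2-fold higher. Points are genes that passed the filter, and 11 of the 26 suprabasal ones passed it only with the oxozeaenol array counted in, so that row lies farther right than the whole list, whose median was 1.76. Housekeeping genes cluster at 0.05.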

How the data were processed

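The authors deposited linear intensities for 45101 Affymetrix probe sets, 1 per array. RNA input was 500 ng per array per the labels, and the submitters' processing notes name GCOS with no version or settings. Each deposited array had a trimmed mean intensity of 500.0, a scaling that assumes equal average transcript abundance. No call of presence was used, so dim values have no detection limit of their own.

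Here, 64 control probe sets were left out, and 34945 of 45037 others had 1 gene symbol in the platform annotation, 932 several and 9160 none. Signals were taken as log2(signal + 21.7), where the constant is the 25th percentile over the table. Probe sets were kept if their mean on that scale reached the median probe set, a signal of 66.1, and the brightest of 20064 kept probe sets stood for its gene. The number of arrays limits the precision: with 1 per group, genes were counted at 2-fold with no test.

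The 15 farthest on each side, and the 15 with at least 2 kept probe sets, had all kept probe sets in the same direction. Named genes came from these, list members past 2-fold and up to 4 examples per list. They also came from level controls, markers of other cell types and genes outside the other 3 arrays. Others are marked. Of 868 entries in 41 lists, those without a probe set or under the filter are not called measured. Members, lists and examples were chosen with earlier results of these data known. Counting was tested on simulated data with large changes in bright genes and little noise. That checks the counting step and gives no rate of wrong calls on these arrays. Alternatives covered pseudocount, filter, scaling, the choice of probe set and the fold. Python 3.11.15, numpy 2.4.6 and pandas 2.3.3 were used.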

Additional observations from a re-analysis of the deposited data

How the results depend on the processing

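With 1 array per group no replicate could be left out, so no test was run. No paired analysis was possible because each group holds 1 array. The count of genes at least 2-fold higher, 175, was 113 with the pseudocount at the median, 565 without a filter, 47 with the filter at the 75th percentile, 291 with probe sets counted singly and 61 at 3-fold. The count of lower genes, 177, was 359 without a filter, 99 with the stricter filter and 59 at 3-fold. Genes 2-fold below all 3 other arrays numbered 62, in place of 98, with the stricter filter, and those above them 156 without a filter and 21 with the stricter one, in place of 74. Higher genes made up 49.7% of all past 2-fold, 61.1% without a filter and 32.2% with the stricter one. Under quantile normalization the counts were 147 higher and 194 lower, and under median centring 154 and 194. Each of these 4 counts stayed within 1.5 times under the other alternatives run for it, including those added after the data had been seen (a filter on the linear mean, no epithelial genes, and genes above the filter signal on both arrays, with genes alike on all 3 stimulated arrays left out for the higher and lower counts only). The stricter filter kept 70 of the 134 named genes, and a gene not kept in a setting was not judged there. Of the 134 none changed sign where it was kept, and 104 stayed on their side of 2-fold in every setting that kept them. The remaining 30 came under it in at least 1 setting, 22 of them with the larger pseudocount and 12 with the mean of the gene's probe sets. These 12 were Bcl2l11, Csf1, Fli1, Gadd45b, Lats2, Ldb3, Nfkbiz, Plau, Rbpj, Rspo2, Slc4a8 and Snai2. Of the list medians under the alternatives, 345 stayed near the main value by a fixed rule and 23 moved. Without a filter the cytokine median went from -1.31 to -0.02, the chemokine median from -0.77 to -0.40, the suprabasal median from 2.64 to 1.76 and the basal epithelial median from 0.43 to 1.17. With the stricter filter the feedback median went from -0.87 to -2.10, over 10 genes, and the suprabasal one to 1.03, over 3 genes.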
